A study of Mus musculus with 8 samples.

Results

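The genes described here are 9 that carry out triglyceride synthesis and the formation of lipid droplets. They were chosen by symbol, as Gpam, Agpat2, Agpat3, Lpin1, Dgat1, Dgat2, Fitm1, Fitm2 and Bscl2, and not by any measured value. Each symbol matched 1 row, so 9 of the 54091 gene rows were members, and all 9 were among the 13141 genes tested. RNA-seq had been done on white quadriceps, which is rich in fast glycolytic fibres, from male mice aged 11 to 14 weeks that were fasted overnight for 14 h. Of the 8 mice, 4 carried Cre under CKM, the promoter of muscle creatine kinase, and lacked Acot2 in muscle (Acot2 muscle knockout, replicates 5 to 8), and 4 had the Loxp/Loxp genotype (floxed control, replicates 1 to 4). The CKM promoter is active in muscle fibres, so other cells of the tissue keep the gene. Mice with Cre but no floxed alleles were not analysed here, and Cre itself and the loss of Acot2 cannot be told apart. Acot2 encodes an enzyme of the mitochondrial matrix that releases fatty acid from its coenzyme A ester, and the comparison of the 2 genotypes asks how the fasted muscle responds to its loss.

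Triglyceride is built from glycerol-3-phosphate and fatty acyl-CoA in the endoplasmic reticulum and the outer mitochondrial membrane. An acyltransferase adds the first acyl chain, an AGPAT enzyme adds the next to give phosphatidate, a lipin removes the phosphate to give diacylglycerol, and a DGAT enzyme adds the last chain. The product gathers between the leaflets of the endoplasmic reticulum membrane and leaves as a droplet with the help of FITM proteins and seipin. In muscle these droplets lie beside mitochondria and serve as a store of fatty acid for oxidation.

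Levels below are normalized counts, obtained from the deposited log2 values, and a difference is knockout minus floxed control on the log2(n + 1) scale, where n is the normalized count. Reads on genes ranged from 28659633 to 40977866 per library. Acot2 itself had 413, 312, 600.5 and 543 normalized counts in knockouts 5 to 8, against 1675, 3927, 2492 and 1530 in floxed controls 1 to 4, so every knockout lay below every floxed control (difference -2.30, exact two-sided permutation p = 0.0286, the smallest that 4 against 4 libraries allow). Acot1 is a near-identical neighbour and can share reads with it. Markers of fast muscle fibres were high in every library: Myh4, the main myosin of fast glycolytic fibres, had at least 1397870 normalized counts, and the slow myosin gene Myh7 had between 12.2 and 303. In bulk tissue, fewer cells of a type and less RNA per cell cannot be told apart.

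Lpin1 had the highest level of the 9 genes and Agpat2 the lowest. Lipin 1 is the phosphatidate phosphatase of muscle and adipose tissue and also acts as a transcriptional coactivator. Per kb of the longest coding transcript, Lpin1 averaged 7119 ± 551 normalized counts in knockouts and 7383 ± 440 in floxed controls (SD, n = 4 each), which placed it at percentile 99.0 of the 12722 tested genes with an annotated length. Fitm1 followed at 2426 ± 328 per kb in knockouts and 2096 ± 167 in floxed controls, and Fitm2 at 1225 ± 172 per kb in knockouts and 1063 ± 146 in floxed controls. Gpam averaged 693 ± 193 per kb in knockouts and 587 ± 83.8 in floxed controls. Agpat3 came next, with 455 ± 80.0 per kb in knockouts and 460 ± 25.4 in floxed controls. Dgat2 had 421 ± 280 per kb in knockouts and 315 ± 115 in floxed controls. The 3 genes at the low end were Bscl2 at 104 ± 4.08 per kb in knockouts and 111 ± 14.4 in floxed controls, Dgat1 at 92.3 ± 22.5 in knockouts and 89.7 ± 6.76 in floxed controls, and Agpat2 at 52.3 ± 34.6 in knockouts and 48.8 ± 21.9 in floxed controls. The order held between neighbours in all 8 libraries except for Agpat3 over Dgat2 and Bscl2 over Dgat1, which held in 7 of 8. Ranges over the 8 libraries were apart for Lpin1 above Fitm1, Fitm1 above Fitm2 and Dgat2 above Bscl2, and overlapped for the other 5 neighbouring pairs. Which transcript of a gene was expressed is not known from these values, so a level per kb carries that uncertainty.

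**Figure D1:**
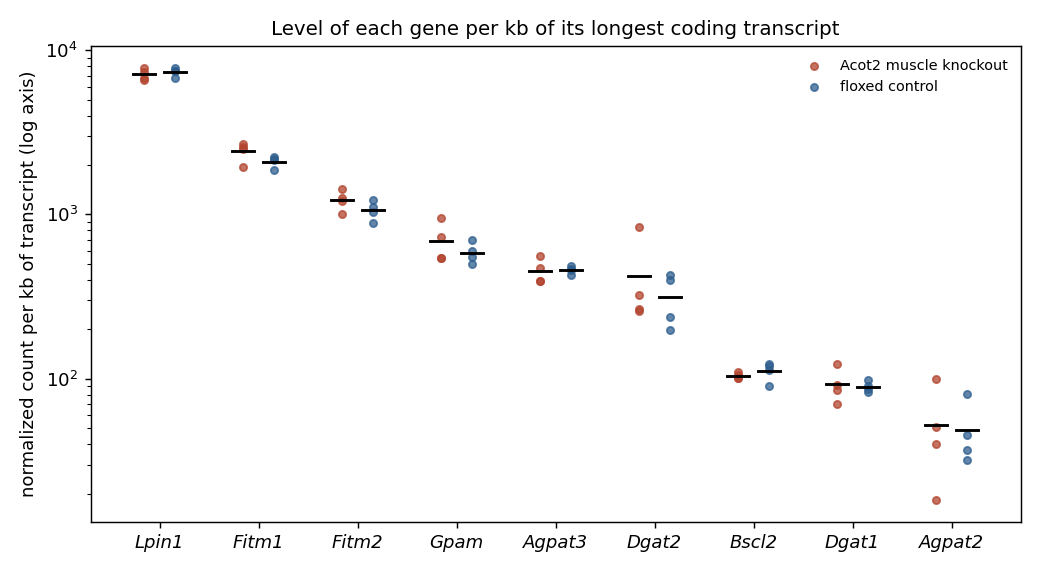
Normalized count per kb of the longest coding transcript (log axis) for the 9 genes, ordered by their mean over 8 libraries, with Acot2 muscle knockouts left of floxed controls, a point per library and a black line at each group mean. Lpin1 lies at about 7119 per kb in knockouts and 7383 in floxed controls, and Agpat2 at 52.3 per kb in knockouts and 48.8 in floxed controls.

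No member passed the test for a difference between Acot2 muscle knockout and floxed control. With limma, 0 of 9 members had an adjusted p under 0.05, where 0% of all 13141 tested genes did. That 0% includes Acot2, the targeted gene, whose limma adjusted p was 0.087. A lack of calls at this group size is thus no evidence that the members were unchanged. At an unadjusted p under 0.05 the count was again 0 of 9, beside 6.16% of all tested genes (2.47% higher and 3.7% lower in the knockout). Limma's voom on the recovered reads called 0 of 9 as well, and the smallest adjusted p of the members by limma was 0.746, for Fitm1. Knockouts and floxed controls overlapped in all 9 members, and did not overlap in 2.75% of all tested genes (1.13% with the knockout higher and 1.62% lower). Values were higher in the knockout for 5 of 9 members, beside 50.6% of all tested genes. The median difference of the members was 0.015, ranging from -0.082 for Bscl2 to 0.30 for Dgat2, beside a median of 0.0031 over all tested genes. Without knockout 7 the number of members with higher values was 3 of 9 and the median -0.066. Without floxed control 3 the median was 0.213.

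**Figure D2:**
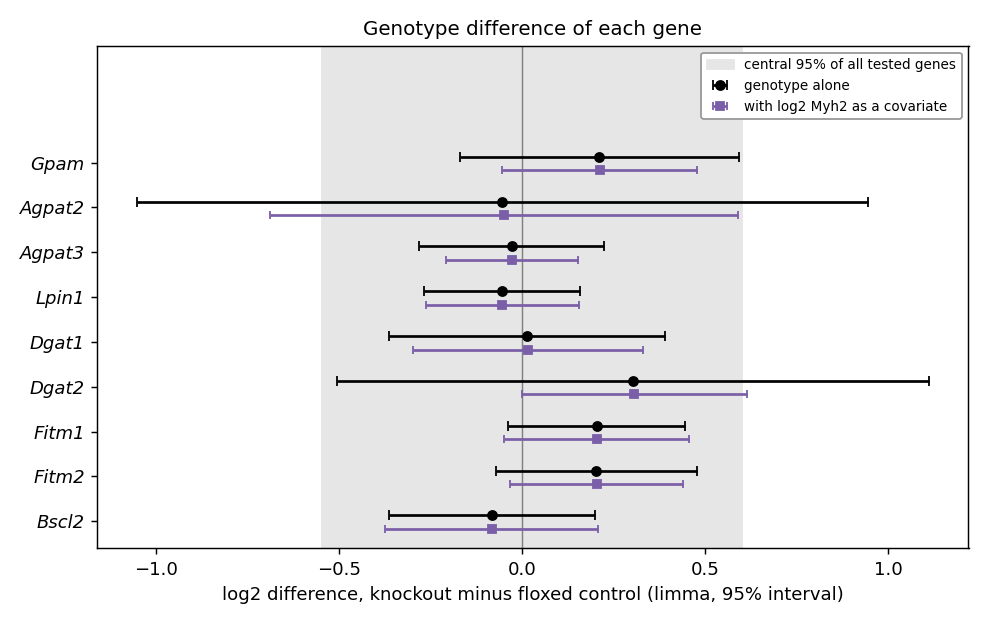
Log2 difference, knockout minus floxed control, of each gene with its 95% interval from limma (4 mice per group), where black circles are the fit with genotype alone, purple squares the fit with the log2 level of Myh2 as a covariate, and the grey band the central 95% of the differences of all tested genes, from -0.54 to 0.60. Every interval from genotype alone contains 0.

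Gpam encodes the mitochondrial glycerol-3-phosphate acyltransferase, which attaches the first fatty acid and is the entry step of the pathway. Normalized counts of Gpam were 3369, 3372, 5877 and 4489 in knockouts 5 to 8, against 3673, 3422, 4307 and 3082 in floxed controls 1 to 4. Knockouts 7 and 8 lay above every floxed control and the other two knockouts lay within the control range. The difference was 0.21 (standard error, SE, 0.173; 95% interval -0.17 to 0.59; limma adjusted p = 0.802). Without knockout 7 it was 0.045. Gpam (gene ID 14732) lies on the minus strand of chromosome 19 in GRCm38, from 55067268 to 55127238, and an annotated antisense gene overlaps it; the strand setting of the counting is not given in the sources used here. Of the summed level per kb of the 4 glycerol-3-phosphate acyltransferase genes, Gpam made up 69.0% ± 4.05 in knockouts and 69.0% ± 1.68 in floxed controls (SD, n = 4 each). Gpat4, listed as Agpat6, followed with 20.6% ± 4.91 in knockouts and 21.6% ± 1.49 in floxed controls, and Gpat3, listed as Agpat9, with 10.3% ± 2.73 in knockouts and 9.41% ± 1.48 in floxed controls.

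Agpat2 and Agpat3 encode enzymes that add the next acyl chain to lysophosphatidate. AGPAT2 is the main form of adipose tissue, and its loss causes congenital lipodystrophy in humans. Agpat2 (gene ID 67512, chromosome 2, 26593057 to 26604417, minus strand) had 75.7, 27.2, 149 and 59.3 normalized counts in knockouts 5 to 8, against 67.5, 47.9, 120 and 55.1 in floxed controls 1 to 4. The highest value, in knockout 7, was 5.47 times the lowest, in knockout 6, and the floxed controls lay between these values. The difference was -0.053 (SE 0.453, 95% interval -1.05 to 0.94, limma adjusted p = 0.982), which in folds runs from 0.482 to 1.93. Knockout 6 had only 25 reads of Agpat2, with an exact Poisson 95% interval of 16.2 to 36.9 reads, and knockout 7 had 160, with an interval of 136 to 187. These intervals cover counting error only and leave out differences between mice. The libraries carry no molecular identifiers, so duplicate reads cannot be told apart and the intervals may be too narrow. Agpat2 overlaps Egfl7, an endothelial gene on the other strand, so without that setting reads of the 2 genes cannot be told apart where they overlap.

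Agpat3 (gene ID 28169, chromosome 10, 78269178 to 78352489, minus strand) was steadier between mice. Genes on the other strand overlap it too, with the same limit as for Agpat2. Its normalized counts ranged from 2348 to 3359 in knockouts, with a median of 434 per kb, and from 2548 to 2915 in floxed controls, with a median of 463 per kb. Knockouts 6 and 8 lay below every floxed control and knockout 7 above them all. The difference was -0.028 (SE 0.115, 95% interval -0.28 to 0.23, limma adjusted p = 0.964). Among the 5 genes Agpat1 to Agpat5, Agpat3 and Agpat1 carried most of the summed level per kb. Agpat3 had 44.8% ± 4.17 in knockouts and 45.4% ± 1.33 in floxed controls, and Agpat1 had 42.2% ± 5.79 in knockouts and 42.5% ± 3.30 in floxed controls (SD, n = 4 each). Agpat2 had 4.96% ± 2.77 in knockouts and 4.81% ± 2.09 in floxed controls.

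Lpin1 (gene ID 14245, chromosome 12, 16535669 to 16610966, minus strand) varied least over the 8 libraries. Knockouts 5 to 8 had 41237, 36791, 37582 and 43321 normalized counts of Lpin1, against 43707, 41660, 37820 and 41637 in floxed controls 1 to 4. Knockouts 6 and 7 lay just below the lowest floxed control, and the highest library was 1.19 times the lowest. The difference was -0.054 (SE 0.0971, 95% interval -0.27 to 0.16, limma adjusted p = 0.899), and the interval runs from a fold of 0.831 to one of 1.12. Leaving out single libraries gave Lpin1 differences between -0.096 (without knockout 8) and -0.018 (without knockout 6). Lpin1 supplied 98.5% ± 0.141 of the summed level per kb of the 3 lipin genes in knockouts and 98.1% ± 0.21 in floxed controls (SD, n = 4 each). The paralogue Lpin2, also a phosphatidate phosphatase, had 543, 227, 373 and 347 normalized counts in knockouts 5 to 8, against 417, 591, 618 and 559 in floxed controls 1 to 4. Of the 4 knockouts, 3 lay below every floxed control and knockout 5 lay among them. Its difference of -0.60 (SE 0.228, unadjusted p = 0.0231) had a limma adjusted p of 0.746.

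Dgat1 and Dgat2 encode unrelated enzymes that add the last acyl chain to diacylglycerol. Dgat2 (gene ID 67800, chromosome 7, 99153658 to 99182719, minus strand) had 586, 601, 1896 and 727 normalized counts in knockouts 5 to 8, against 906, 535, 965 and 447 in floxed controls 1 to 4. Knockout 7 alone lay above the floxed controls, and the other 3 knockouts lay inside the control range. The difference was 0.30 (SE 0.367, 95% interval -0.51 to 1.11, limma adjusted p = 0.855), the largest of the 9, and it was -0.091 without knockout 7. Dgat1 (gene ID 13350, chromosome 15, 76502015 to 76511953, minus strand) had 160.4, 172, 233 and 132 normalized counts in knockouts 5 to 8, against 164, 157, 187 and 169.8 in floxed controls 1 to 4. Here too knockout 7 was the highest library, while knockout 8 was the lowest. The difference was 0.015 (SE 0.171, 95% interval -0.36 to 0.39, limma adjusted p = 0.987), and it was -0.134 without knockout 7.

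The level of Dgat2 exceeded that of Dgat1 in every library. Ratios within a library are of n + 1 per kb, with n the normalized count, and that of Dgat2 to Dgat1 was 3.03, 2.90, 6.78 and 4.57 in knockouts 5 to 8, against 4.59, 2.84, 4.30 and 2.19 in floxed controls 1 to 4. The mean log2 ratio was 2.02 ± 0.573 in knockouts and 1.73 ± 0.506 in floxed controls (SD, n = 4 each), and an exact two-sided permutation test gave p = 0.457, or 1 after adjustment over the 3 ratios computed. For Agpat2 over Agpat3 the mean log2 ratio was -3.33 ± 0.785 in knockouts and -3.31 ± 0.52 in floxed controls, with an exact permutation p of 0.971 and an adjusted p of 1.

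FITM1 and FITM2 are membrane proteins of the endoplasmic reticulum that are needed for droplets to bud. FITM1 is found mainly in skeletal and heart muscle and FITM2 more widely, with high levels in adipose tissue. In GRCm38, Fitm1 (gene ID 68680) spans 55575617 to 55576954 of chromosome 14, plus strand, and Fitm2 (gene ID 228859) spans 163466379 to 163472629 of chromosome 2, minus strand. Their RefSeq promoters in GRCm38.p6, from 250 bases before to 50 after the RefSeq start, are at chr14:55575424-55575723 (plus strand) and chr2:163472580-163472879 (minus strand). These promoters were picked after the ratio of Fitm1 to Fitm2 was seen, which ran from 1.76 to 2.14 over the 8 libraries. No background of other gene pairs was computed for that ratio. Capitals mark matches, on either strand, to the E box CANNTG and to the GC box GGGCGG, and none of these matches overlap.
Fitm1 promoter: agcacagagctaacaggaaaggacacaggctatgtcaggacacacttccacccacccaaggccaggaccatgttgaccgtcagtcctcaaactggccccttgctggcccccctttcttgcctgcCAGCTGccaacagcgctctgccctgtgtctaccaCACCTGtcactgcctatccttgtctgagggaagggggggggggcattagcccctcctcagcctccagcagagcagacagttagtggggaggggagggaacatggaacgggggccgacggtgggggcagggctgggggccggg
Fitm2 promoter: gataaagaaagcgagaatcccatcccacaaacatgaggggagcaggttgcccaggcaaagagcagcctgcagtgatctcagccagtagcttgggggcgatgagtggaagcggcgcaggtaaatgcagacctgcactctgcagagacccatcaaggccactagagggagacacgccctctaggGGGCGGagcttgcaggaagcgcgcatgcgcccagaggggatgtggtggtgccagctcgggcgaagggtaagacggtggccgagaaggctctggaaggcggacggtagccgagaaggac
The Fitm1 window held 2 E boxes and no GC box, and the Fitm2 window held 1 GC box and no E box. Of 32851 promoter windows of the same length, 72.3% held an E box and 35.7% a GC box. Neither window held these letters on either strand: the TATA box TATAAA, found in 13.6% of all windows, or the E box form CACGTG, in 7.15%. These matches are descriptions of the sequence only.

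Fitm1 had 1889, 2494, 2434 and 2604 normalized counts in knockouts 5 to 8, against 2162, 2110, 2069 and 1799 in floxed controls 1 to 4. Knockouts 6, 7 and 8 lay above every floxed control and knockout 5 lay within the control range. The difference was 0.20 (SE 0.11, 95% interval -0.038 to 0.45, limma adjusted p = 0.746, unadjusted p = 0.0903). Without knockout 5 the groups of Fitm1 did not overlap, with a difference of 0.306 and a limma adjusted p of 0.118, and without that library the groups did not overlap in 16.2% of all tested genes. Fitm2 had 3988, 4819, 5652 and 4978 normalized counts in knockouts 5 to 8, against 4890, 4112, 4374 and 3499 in floxed controls 1 to 4. Knockouts 7 and 8 exceeded every floxed control, and floxed control 4 was the lowest library for both genes. The difference of Fitm2 was 0.20 (SE 0.124, 95% interval -0.071 to 0.48, limma adjusted p = 0.751), and 0.117 without floxed control 4.

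By normalized count Fitm2 was higher than Fitm1, but its transcript is longer, and per kb Fitm1 was the higher in all 8 libraries. The ratio of Fitm1 to Fitm2 (n + 1 per kb) was 1.94, 2.12, 1.76 and 2.14 in knockouts 5 to 8, against 1.81, 2.10, 1.93 and 2.10 in floxed controls 1 to 4. The other 2 ratios computed each hold Agpat2 or Dgat2, the members with the widest range over the 8 libraries. The 2 groups covered nearly the same range of Fitm1 over Fitm2, and that it was narrower than those of the other ratios is a description only. The mean log2 ratio was 0.99 ± 0.131 in knockouts and 0.99 ± 0.104 in floxed controls (SD, n = 4 each), and the exact two-sided permutation p was 1. An antisense gene overlaps each of them (Gm15932 at Fitm1 and 2310001K24Rik at Fitm2), with the same limit on strand as for Agpat2.

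**Figure D3:**
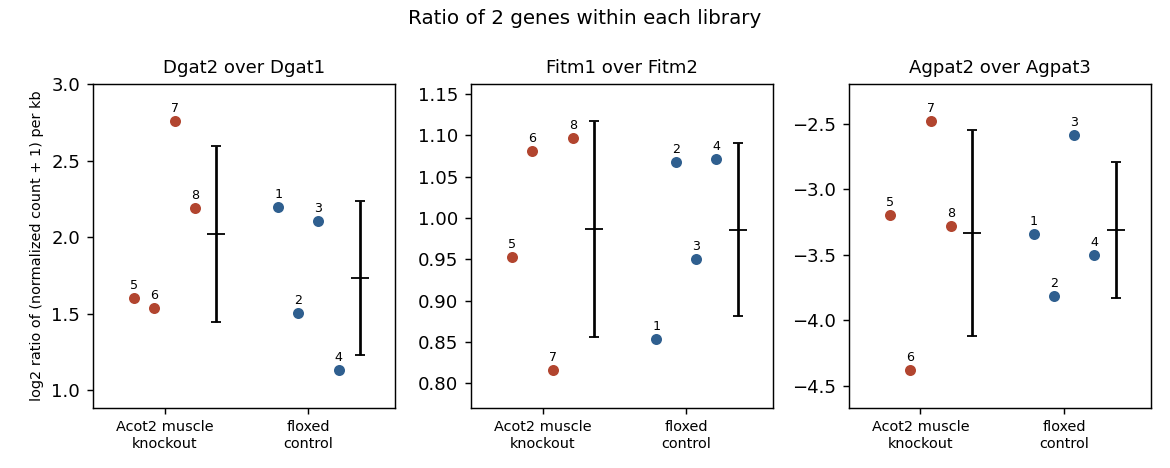
Log2 ratio of n + 1 per kb, with n the normalized count, within each library for Dgat2 over Dgat1, Fitm1 over Fitm2 and Agpat2 over Agpat3, with Acot2 muscle knockouts left of floxed controls, replicate numbers beside the points and bars at mean ± SD (n = 4 each). The axes do not start at 0 and differ in span: the Fitm1 over Fitm2 ratio stays between 0.82 and 1.10 on the log2 scale, while Agpat2 over Agpat3 runs from -4.38 to -2.48.

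Bscl2 encodes seipin, which marks the sites where droplets form and whose loss, like that of AGPAT2, causes congenital lipodystrophy in humans. Bscl2 (gene ID 14705, chromosome 19, 8837467 to 8848683, plus strand) had 206, 215, 197 and 198 normalized counts in knockouts 5 to 8, against 177, 233, 239.8 and 220.4 in floxed controls 1 to 4. The knockouts lay close together, below 3 of the floxed controls and above floxed control 1. The difference was -0.082 (SE 0.128, 95% interval -0.36 to 0.20, limma adjusted p = 0.879). Without floxed control 1 the groups of Bscl2 did not overlap and the difference was -0.178, while 4.76% of all tested genes then had groups that did not overlap. Bscl2 overlaps Gng3 on the other strand, with the limit given above for Agpat2. It also overlaps a further annotated gene on its own strand, and there no strand setting could tell the reads apart.

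**Figure D4:**
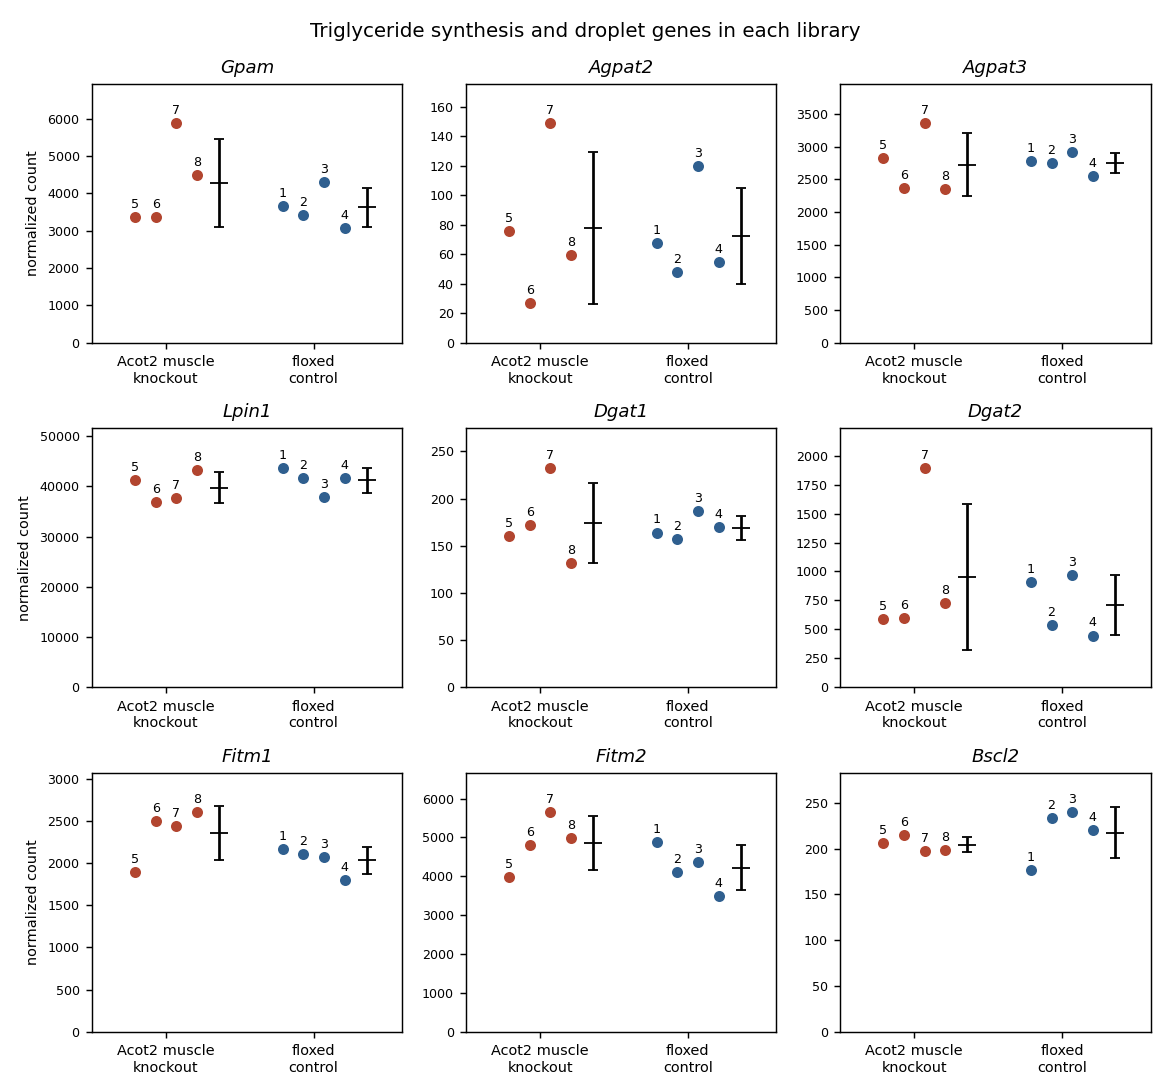
Normalized count of each of the 9 genes in every library (axes start at 0), with the 4 Acot2 muscle knockouts left of the 4 floxed controls, replicate numbers beside the points and bars at mean ± SD (n = 4 each). The groups overlap for every gene, and knockout 7 is the highest library for 6 of the 9, with 1896 normalized counts of Dgat2 in that library. The share of all tested genes highest in knockout 7 was not computed.

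Several of these genes had their highest or lowest value in the same mouse. Knockout 7 was the highest of the 8 libraries for 6 members (Gpam, Agpat2, Agpat3, Dgat1, Dgat2 and Fitm2), and floxed control 4 was the lowest for 4 (Gpam, Dgat2, Fitm1 and Fitm2). Lpin1 and Bscl2 went the other way in knockout 7, at 0.10 and 0.089 below their means on the log2 scale. The share of all tested genes that were highest in knockout 7 or lowest in floxed control 4 was not computed. These counts are thus not read as a result about the members. Knockout 7 also had the least Myh4 (1397870 normalized counts) and the lowest total of normalized counts of the 8 libraries. The same library had the most Myh2, the myosin of fast oxidative fibres, with 7087, 4005, 59055 and 4102 normalized counts in knockouts 5 to 8, against 18567, 4421, 18357 and 4678 in floxed controls 1 to 4. The 3 libraries with the most Myh2 (knockout 7, floxed control 1 and floxed control 3) were also the 3 with the most Dgat2, and this held for 1 of the 9 members. Over the whole list of 7 markers of slow and oxidative fibres, none of which was at 0 in any library, the summed level ranged from 4181 to 59890 normalized counts in knockouts and from 4502 to 18803 in floxed controls. Of these markers 6 of 7 had higher values in the knockout (median difference 1.25), beside 50.6% of all tested genes. By limma 1 of the 7 markers had an unadjusted p under 0.05, beside 6.16% of all tested genes, and 0 had an adjusted p under 0.05. Some values lay near 0, which limits these differences: Myl3 had 1.04 normalized counts in floxed control 3, Tnni1 2.61 in floxed control 2 and Myl2 2.42 in knockout 8. Most of the sum is Myh2, and the other 6 markers summed to between 79.9 and 835 normalized counts in knockouts and between 45.3 and 237 in floxed controls.

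**Figure D5:**
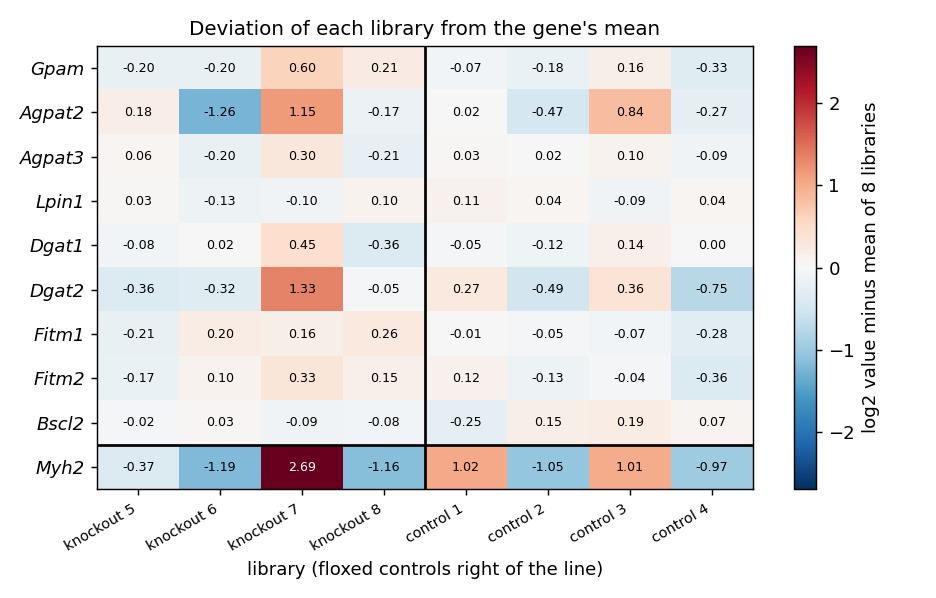
Log2 value of each of the 9 genes, and of Myh2 below the line, minus the gene's mean over the 8 libraries, for Acot2 muscle knockouts 5 to 8 and then floxed controls 1 to 4, in red above and blue below the mean. Knockout 7 stands at 1.33 for Dgat2, 1.15 for Agpat2, 0.60 for Gpam and 2.69 for Myh2, while Lpin1 stays within 0.13 of its mean below and 0.11 above.

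With the log2 level of Myh2 as a covariate, a fit added after the values were seen, Dgat2 had a difference of 0.31 (95% interval 0.00028 to 0.61) and an SE of 0.138 in place of 0.367. Its unadjusted p was 0.0498 and its limma adjusted p 0.723. In that same fit 842 of the 13141 tested genes had an unadjusted p under 0.05, and 0 had an adjusted p under 0.05. For Gpam the SE was 0.12 in place of 0.173 and the difference 0.21 (limma adjusted p = 0.725), and for Agpat2 the SE was 0.288 in place of 0.453. The differences themselves moved little, and Myh2 had nearly equal mean log2 levels in the 2 groups (difference -0.0090, SE 0.809). Lpin1, Fitm1 and Bscl2 kept nearly the same SE, at 0.0942, 0.114 and 0.131.

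Agpat2 and Dgat2 had the widest range over the 8 libraries, and the genes most like each were found by the root mean square difference of log2 values after centring each gene on its own mean. Closest to Dgat2 over the 8 libraries were Fabp3, the fatty acid binding protein of heart and muscle (0.169), Lpl, the lipoprotein lipase gene (0.187), and Dusp18, a phosphatase gene (0.20). Fabp3 had 2778, 3028, 8995 and 3626 normalized counts in knockouts 5 to 8, against 3774, 3232, 4305 and 1812 in floxed controls 1 to 4. Lpl had 10551, 10301, 25391 and 12893 normalized counts in knockouts 5 to 8, against 14622, 11357, 14392 and 6942 in floxed controls 1 to 4. Dusp18 had 305, 244, 875 and 386 normalized counts in knockouts 5 to 8, against 593, 265, 514 and 269 in floxed controls 1 to 4. All 3 were highest in knockout 7, as Dgat2 was, and Fabp3 and Lpl were lowest in floxed control 4 but Dusp18 in knockout 6. These genes were chosen for their likeness to Dgat2, so the shared order is a description. Closest to Agpat2 were Fah, which encodes the last enzyme of tyrosine breakdown (0.184), Zfp827, a zinc finger gene (0.211), and Npr3, the clearance receptor for natriuretic peptides (0.269).

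Adipocyte markers also varied between mice. Adipoq, the adiponectin gene, had 120, 39.2, 188 and 46.0 normalized counts in knockouts 5 to 8, against 11.8, 79.2, 188 and 95.1 in floxed controls 1 to 4. Plin1, the coat protein gene of adipocyte droplets, ranged from 21.8 to 112 in knockouts and from 17.2 to 183 in floxed controls, and Cfd, the adipsin gene, from 353 to 1274 in knockouts and from 133 to 1320 in floxed controls. Among the 9 members, Agpat2 and Agpat3 shared their 3 highest libraries with Adipoq: knockout 7, floxed control 3 and knockout 5. Floxed control 1, however, had the least Adipoq and was the fourth for both Agpat2 and Agpat3. The 11 markers summed to between 13395 and 36817 normalized counts in knockouts and between 7698 and 33171 in floxed controls, most of it Car3, which muscle also expresses, and Lep and Adrb3 were at 0 in some libraries. None of the 9 tested adipocyte markers had an adjusted p under 0.05 by limma, and 0 had an unadjusted p under 0.05. The part of adipocyte RNA and of fibre type in the levels of the 9 members was not tested.

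Other genes of the pathway, from 6 lists, gave no call. Of 72 tested genes, 44 had higher and 28 lower values in the knockout, with a median of 0.047, and 0 had a limma adjusted p under 0.05 (smallest 0.746), while 3 of the 72 had an unadjusted p under 0.05, beside 6.16% of all tested genes. For the supply of glycerol-3-phosphate, 4 of 6 genes had higher values (median 0.027). Pck1, which makes the precursor of glycerol-3-phosphate when glucose is scarce, had the smallest p of that list, with 278, 14.2, 310 and 43.6 normalized counts in knockouts 5 to 8, against 33.2, 158, 429 and 303 in floxed controls 1 to 4 (difference -0.90, SE 0.995, limma adjusted p = 0.844), and it is also an adipocyte marker. Gk, the glycerol kinase gene, had a difference of 0.36 (SE 0.461). Knockouts 5 and 7 and floxed controls 2, 3 and 4 held nearly all of the Pck1 transcript.

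Among other glycerolipid acyltransferases, 8 of 11 tested genes had higher values and the median was 0.12. Mboat1, a lysophospholipid acyltransferase gene, averaged 16.5 ± 2.72 normalized counts in knockouts and 8.64 ± 1.80 in floxed controls (SD, n = 4 each), and Agpat4 averaged 53.1 ± 5.41 in knockouts and 36.6 ± 9.48 in floxed controls. In both genes every knockout lay above every floxed control, with a difference of 0.87 (SE 0.355) for Mboat1 and of 0.55 (SE 0.238) for Agpat4, and a limma adjusted p of 0.746 for each. They are the 2 genes with the smallest p of that list, a choice that favours separate groups. Few reads lie behind Mboat1, with 6.96 normalized counts in floxed control 2, which limits its precision. For other phosphatidate phosphatases and their regulators, 3 of 8 had higher values (median -0.034). Besides Lpin2, the gene with the smallest p was Plpp1, listed as Ppap2a, a lipid phosphatase of the plasma membrane, at 0.24 (SE 0.133).

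Of 14 tested partners in droplet formation and growth, 9 had higher values (median 0.077). Vmp1, which acts in the endoplasmic reticulum in the release of lipid and in autophagy, averaged 2321 ± 490 normalized counts in knockouts and 1962 ± 150 in floxed controls (SD, n = 4 each), a difference of 0.22 (SE 0.133, limma adjusted p = 0.749). Plin2, the coat protein gene of most droplets outside adipose tissue, had 608, 479, 1143 and 536 normalized counts in knockouts 5 to 8, against 475, 522, 685 and 456 in floxed controls 1 to 4 (difference 0.30, SE 0.242, limma adjusted p = 0.794). As with Dgat2, knockout 7 was the highest library and floxed control 3 the next. For the branch towards phospholipids, 13 of 20 genes had higher values (median 0.047). Its first gene by p was Dgkd, which turns diacylglycerol back into phosphatidate, with 1777 ± 48.5 normalized counts in knockouts and 1942 ± 36.8 in floxed controls (SD, n = 4 each, difference -0.13, SE 0.0673, limma adjusted p = 0.746). The groups of Dgkd did not overlap, beside 2.75% of all tested genes, and its choice by p favours separate groups. Cept1, which makes phosphatidylcholine and phosphatidylethanolamine from diacylglycerol, was at 0.21 (SE 0.11).

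Among regulators of lipogenic and lipin genes, 8 of 14 had higher values and the median was 0.0030. Cebpb, a transcription factor of adipocyte differentiation, averaged 2303 ± 413 normalized counts in knockouts and 2852 ± 521 in floxed controls (SD, n = 4 each, difference -0.31, SE 0.152, limma adjusted p = 0.746). Esrra, a nuclear receptor for mitochondrial genes, averaged 1349 ± 254 in knockouts and 1108 ± 132 in floxed controls (difference 0.27, SE 0.148, limma adjusted p = 0.748). Markers of other cells gave no call either (smallest limma adjusted p 0.746), and the share of all tested genes at an unadjusted p under 0.05 was 6.16%. Macrophage markers had 6 of 6 genes with higher values (median 0.48) and 3 at an unadjusted p under 0.05, endothelial markers 4 of 6 (median 0.13) and also 3 at an unadjusted p under 0.05, fibroblast markers 4 of 6 (median 0.14), Schwann cell markers 4 of 4 (median 0.28) and erythroid genes 5 of 5 (median 0.25). Summed macrophage markers ranged from 2151 to 3843 normalized counts in knockouts and from 1238 to 2448 in floxed controls, and summed endothelial markers from 5752 to 7548 in knockouts and from 5156 to 6401 in floxed controls. The fibroblast sum ranged from 29643 to 69124 in knockouts and from 30581 to 49447 in floxed controls, the Schwann cell sum from 662 to 1030 in knockouts and from 646 to 991 in floxed controls, and the erythroid sum from 1899 to 3178 in knockouts and from 1120 to 5357 in floxed controls. None of these markers was at 0 in any library. Their part in the levels of the 9 members was not tested.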

How the data were processed

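Per the labels' protocols, a Norgen kit gave the total RNA and a TruSeq stranded kit the libraries. DESeq2, HTSeq, STAR, FastQC and cutadapt, with no version, and the build GRCm38 are named in the submitters' processing notes. For the annotation, the strand setting of the counting and any filter, nothing is given in the sources used here. The authors' deposited table holds log2 values per gene, and from the values themselves each is log2(n + 1), where n is reads over a size factor of the library, unscaled for length. Taking n in steps gave whole reads (within 0.1 read) for 100% of values up to 200 reads in every library.

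A gene was tested if its normalized count averaged 10 or more, with a linear model per gene and a mean-variance trend (limma 3.58.1, R 4.3.3), and p-values were adjusted by Benjamini-Hochberg over all 13141, with a call at an adjusted p under 0.05. The pseudocount of 1 is in the deposited values, so fold changes of low genes are understated. Positions and transcript lengths are from GENCODE M21 and promoters from RefSeq (GRCm38.p6), where 7 of the 9 members matched. A separate mouse number stands in every title, so libraries were taken as separate animals. They give no batch, but the numbers fall into 2 ranges, used as a covariate in an alternative.

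The members, lists and tests were chosen with earlier results of these data known. Named genes are the members, Acot2, the 2 genes with the smallest p in each pathway list, first-listed markers of muscle fibres and adipocytes (other cell types by list only), and the 3 genes most like the 2 most variable members. Acot1, Myh2, Myh7, Car3, Lep, Adrb3, Agpat1, Gpat3, Gpat4, Egfl7, Gng3 and other overlapping genes were named after their values were seen. Of the 80 pathway genes, 6 were found under an older symbol, and Ldaf1 and Ppard were not analysed here. The fit was tested on simulated data.

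The planned edgeR test was not run, since the deposited unit is log2, and voom on recovered reads replaced it. That fit, the Myh2 covariate and a block on the mouse's number in the column headers were chosen after seeing the data. Other alternatives covered the pseudocount, filter, scaling, variance model, mouse number range and each library left out.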

Additional observations from a re-analysis of the deposited data

How the results depend on the processing

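Over 20 alternative settings, 0 of the 9 members were called, and their limma adjusted p ranged from 0.118 to 1.00. Across all tested genes 1 gene passed without the filter on low values, against 0 otherwise, and that gene was Acot2 (limma adjusted p = 0.0042). The number at an unadjusted p under 0.05 was 810, 1467 with array weights, 1362 without the filter, and from 367 without floxed control 4 to 2200 without knockout 5 (422 without knockout 6, 456 without knockout 8 and 518 without floxed control 1). With voom it was 756. With every library scaled to the same total, 66.4% of those genes had higher values in the knockout, against 40%.

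Gpam, Fitm1 and Fitm2 had higher, and Lpin1 and Bscl2 lower, values in the knockout in all 20 settings. That tally is no measure of support, since all settings use the same mice. Changes of the filter, the robust variance model, the mouse number range and the column number block left these differences as they were. With single libraries left out the ranges were 0.045 to 0.313 for Gpam, 0.146 to 0.306 for Fitm1, 0.117 to 0.295 for Fitm2, -0.096 to -0.018 for Lpin1 and -0.178 to -0.032 for Bscl2. The sign of the others turned, and the cause was not tested: Dgat2 ranged from -0.091 (without knockout 7) to 0.474 (without floxed control 3), Dgat1 from -0.134 (without knockout 7) to 0.138, Agpat2 from -0.444 (without knockout 7) to 0.359 (without knockout 6) and Agpat3 from -0.134 (without knockout 7) to 0.038 with single libraries left out. Agpat2 was at 0.028 with voom, Agpat3 at 0.013 with equal totals and Dgat1 at -0.0045 with array weights. The members' median ranged from -0.066 to 0.213, and the number whose groups did not overlap from 0 to 1. The log2 difference of the Agpat2 over Agpat3 ratio ranged from -0.310 to 0.324 and was 0.00047 with a pseudocount of 10. That of Fitm1 over Fitm2 ranged from -0.043 to 0.058 and that of Dgat2 over Dgat1 from 0.043 to 0.450. Acot2 ranged from -2.49 to -2.03, and its limma adjusted p was 0.087 and ranged from 0.0042 to 0.758. The titles number the mice 1 to 8, while the column headers number them 1 to 4 within each genotype. Deviations of same-numbered libraries from their group means correlated at -0.053, 0.10, 0.281 and -0.162 over genes for numbers 1 to 4. Of 8 libraries, 3 correlated best with their own number. With only 4 mice per group, these values cannot decide whether the column number pairs the mice. With that number as a replicate block, 0 genes and 0 members were called and 931 genes had an unadjusted p under 0.05. Only 25 to 160 reads per library lie behind Agpat2, which limits its precision.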
